A study of Mus musculus with 8 samples.

Results

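Blastocysts grown from Tet3-null oocytes were compared with blastocysts grown from wild-type oocytes, in 2 RNA-seq libraries of each kind out of the 8 libraries of the series. The members were every library labelled as blastocyst, and all 23234 listed genes were read in each. Oocytes came from superovulated females that were either f/f, here called wild-type, or f/- with a Zp3-Cre transgene, here called Tet3-null, where f is the floxed Tet3 allele. Zp3-Cre is active in growing oocytes, and the labels do not say whether the f/f females carried Cre. All oocytes were fertilised in vitro with CAST/EiJ sperm, so every embryo carries a paternal Tet3 allele, and the genotype names refer to the oocyte. Zygotes with 2 pronuclei were grown in KSOM medium to 96 h after fertilisation, and each library was made from a pool of 7 blastocysts. Nothing in the labels says that the 2 pools of a genotype were collected separately, so the p-values speak for the spread among these 4 libraries, part of which may be technical.

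The blastocyst holds an outer epithelium, the trophectoderm, and an inner cell mass that divides into epiblast and primitive endoderm. The trophectoderm seals itself with tight junctions, pumps sodium and draws water to fill the blastocoel, and later forms the placenta. Tet3 is a dioxygenase that oxidises 5-methylcytosine in the zygote, and the comparison addresses which transcripts of the blastocyst differ when the oocyte lacked it. Methylation was not measured in these libraries.

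Values are FPKM, fragment counts per kilobase of transcript scaled to the mapped total of the library, and differences are on the log2(FPKM + 1) scale as Tet3-null minus wild-type. This scale understates the change of weakly expressed genes. The 4 libraries had 10607 to 10794 genes at 1 FPKM or more, summed FPKM of 924556 to 956335, and depths of 1 to 1.311 relative to wild-type library 1, with both Tet3-null libraries deeper than both wild-type libraries. Read totals are unknown. Pearson's r across tested genes was 0.9775 between the Tet3-null libraries, 0.9726 between the wild-type libraries, and 0.9693 to 0.9707 between genotypes. Tet3 itself was listed at 0.519 and 0.412 FPKM in the Tet3-null and 0.957 and 0.459 FPKM in the wild-type libraries, so the groups overlapped and the gene did not reach the filter. At the 2-cell stage of the same series Tet3 was at 3.28 and 4.41 FPKM in the Tet3-null and 10.8 and 7.54 FPKM in the wild-type libraries, and the values cover the whole gene, not the deleted part. Of its relatives, Tet1 was at 6.81 and 6.74 FPKM in the Tet3-null and 7.33 and 5.61 FPKM in the wild-type libraries. The more abundant Tet2 was at 46.7 and 46.6 FPKM in the Tet3-null and 60.9 and 49.1 FPKM in the wild-type libraries, and neither was called.

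Transcripts of other cells were looked for by marker lists. Of the defining genes of cumulus and granulosa cells, Cyp19a1, Fshr, Inha, Foxl2, Has2 and Ptx3, the highest value in any library was 0.223 FPKM, and the summed list was 634 and 689 FPKM in Tet3-null and 586 and 584 FPKM in wild-type libraries, with 3 of 22 members reaching the filter. Nearly all of that sum was Gja1, connexin 43, which the blastocyst itself expresses, at 622 and 678 FPKM in the Tet3-null and 574 and 574 FPKM in the wild-type libraries. The sperm list summed to 65.3 to 68.0 FPKM in Tet3-null and 70.7 to 79.2 FPKM in wild-type libraries, with 5 of 18 members tested. The sperm gene Prm2 was above the filter in every library, at 1.84 and 3.78 FPKM in the Tet3-null and 1.93 and 2.098 FPKM in the wild-type libraries. The blood and somatic list summed to 28.6 to 34.2 and 25.5 to 26.1 FPKM, with 3 of 23 members tested. Hbb-b1 was listed at 0 in all 4 libraries, while Hba-a2 reached the filter through the Tet3-null libraries alone. Of the other 2 tested, 1 (50%) had both Tet3-null libraries above both wild-type libraries. That share was 19.7% of the genes left when all that passed through 1 genotype alone are set aside.

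The balance of sex-linked transcripts differed between the genotypes. Summed over Ddx3y, Eif2s3y, Kdm5d, Usp9y and Uty, Y-linked expression was 100.1 and 93.0 FPKM in the Tet3-null and 54.2 and 49.0 FPKM in the wild-type libraries, 1.87-fold higher in the former. Kdm5d passed the filter through the Tet3-null libraries alone, which fixes its direction. For Ddx3y, Eif2s3y, Usp9y and Uty too, both Tet3-null libraries lay above both wild-type libraries. That was so for 19.7% of the genes left when all that passed through 1 genotype alone are set aside. The noncoding RNA Xist, which silences 1 X chromosome in females, was at 6.36 and 4.64 FPKM in the Tet3-null and 16.6 and 14.6 FPKM in the wild-type libraries, and it did not pass the test among all entries (adjusted p = 0.0645). For Xist each Tet3-null library was lower than each wild-type library. In the limma fit described below that leaves out microRNA and small nucleolar RNA entries, Xist was called lower (adjusted p = 0.01904). Eif2s3y and Ddx3y were called higher in that fit (adjusted p = 0.0184 and 0.0349), and Kdm5d, Usp9y and Uty were not called. Libraries were not strand-marked, so reads of Xist and Tsix cannot be told apart. The sexes of the 7 embryos in each pool are not given. Their part in the differences below was not tested. Some X-linked genes are named as such below, and a gene without that mark may also be X-linked.

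**Figure D1:**
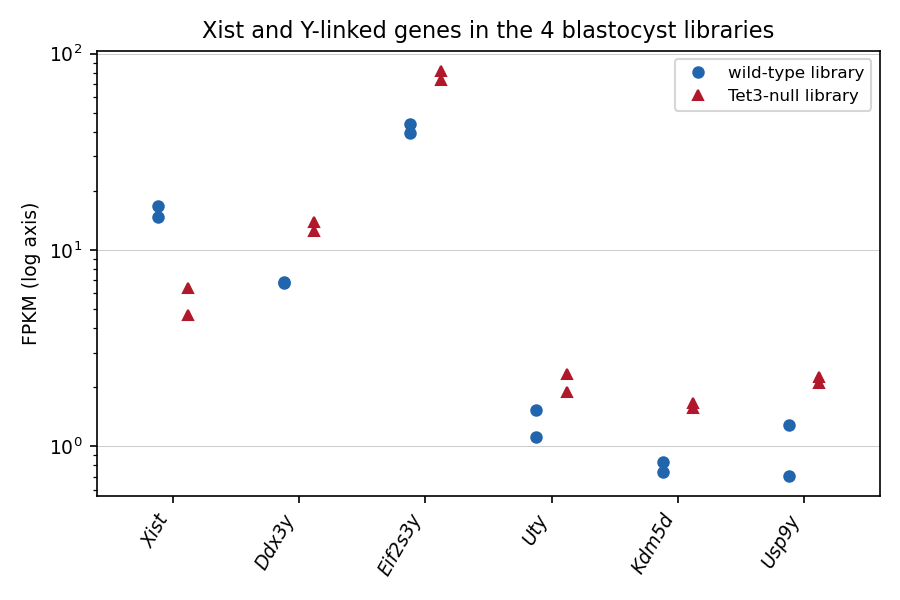
FPKM of Xist and the 5 Y-linked genes in the 4 blastocyst libraries, on a log axis; each point is 1 library. Xist was 2.84-fold lower in the Tet3-null libraries, and each Y-linked gene was higher there without overlap, a direction that the filter fixed for Kdm5d.

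Few genes separated the genotypes by a test across all genes. In a limma fit to the 4 libraries, 29 of 10897 tested genes passed a Benjamini-Hochberg adjusted p of 0.05 (0.266%), 7 higher (0.0642%) and 22 lower (0.202%) in Tet3-null blastocysts, and 1684 (15.5%) had an unadjusted p under 0.05. With any 1 of the 4 libraries left out, 8 to 12 were called higher and 11 to 24 lower. Of the 29, 17 were microRNA or small nucleolar RNA (snoRNA) entries, which leaves 12 other genes: Hprt, which rose, and 11 that fell. A difference of at least 1 on the log2 scale with no overlap between groups was seen in 38 genes higher (0.349%) and 71 lower (0.652%), of which 10 and 23 were microRNA or snoRNA entries. Of all tested genes, both Tet3-null libraries lay above both wild-type libraries in 20.2% and below both in 27.8%, a split that became 25.8% and 22.7% after a correction for transcript GC content and length. With 2 libraries against 2, a permutation test of a single gene cannot go below a two-sided p of 0.333. With the 148 tested short entries left out, the prior degrees of freedom of the fit were 5.73 instead of 3.64, and 158 of 10749 genes passed (1.47%), 34 higher (0.316%) and 124 lower (1.15%), and all 12 other genes were among them. Calls made only in that fit are marked below by their p "without short entries"; of the 12, only Hprt was also called when all 8 libraries of the series were fitted together.

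Hprt, the X-linked enzyme that recycles hypoxanthine and guanine into purine nucleotides, had the largest difference among the 12. It was at 1553 and 1469 FPKM in the Tet3-null and 283 and 377 FPKM in the wild-type libraries. Both Tet3-null libraries lay far above both wild-type libraries, a 4.58-fold higher mean, and the log2 change was 2.21 (SE 0.14, limma adjusted p = 0.00514). The call was kept in 12 of 14 alternative settings, and it was lost without the filter on low values and without the intensity trend.

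Adh1, an alcohol dehydrogenase that also oxidises retinol, had the largest fall of those 11, at 216 and 169 FPKM in the Tet3-null and 650.5 and 553 FPKM in the wild-type libraries. Its log2 change was -1.65 (SE 0.14, limma adjusted p = 0.023), a 3.13-fold lower mean. Hsd17b6, a hydroxysteroid dehydrogenase, was at 24.6 and 28.3 FPKM in the Tet3-null and 59.8 and 62.3 FPKM in the wild-type libraries. Slc15a2, a proton-coupled peptide transporter, was at 38.6 and 37.7 FPKM in the Tet3-null and 97.8 and 78.95 FPKM in the wild-type libraries. Their log2 changes were -1.18 and -1.18 (limma adjusted p = 0.0303 and 0.04696), so the enzyme and the transporter both fell by more than the spread between libraries. Mrpl12, a protein of the mitochondrial ribosome, was at 174 and 171 FPKM in the Tet3-null and 324 and 304 FPKM in the wild-type libraries (log2 change -0.86, limma adjusted p = 0.023). Ube2c, the ubiquitin-conjugating enzyme of the anaphase-promoting complex, was at 281 and 279.9 FPKM in the Tet3-null and 466 and 456 FPKM in the wild-type libraries (log2 change -0.71, limma adjusted p = 0.03104). In both genes each group's libraries lay close together. Dnajc30, a mitochondrial J-domain protein, and Hpdl changed by -1.05 and -0.98 (limma adjusted p = 0.04696 and 0.0486). Mrpl12, Ube2c, Dnajc30 and Hpdl were named after their values were seen, because they complete the 12. The remaining 4, Tspan8, Krt8, Id2 and Uqcrc1, are described with their groups, and all 11 that fell lost the call in the 8-library fit, without the filter and without the trend. With the shared replicate number added to the fit as a block, all of the 11 but Adh1 lost it. With 1 library left out, Adh1 lost the call without either wild-type library, Tspan8 lost it in all but the fit without Tet3-null library 1, and the other 9 lost it in all 4 such fits. Krt8, Slc15a2, Hsd17b6, Dnajc30 and Hpdl also lost it under quantile normalisation, Tspan8, Ube2c and Dnajc30 under median-of-ratios scaling, Ube2c, Dnajc30 and Hpdl under the GC and length correction, and Hpdl with a pseudocount of 0.1.

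**Figure D2:**
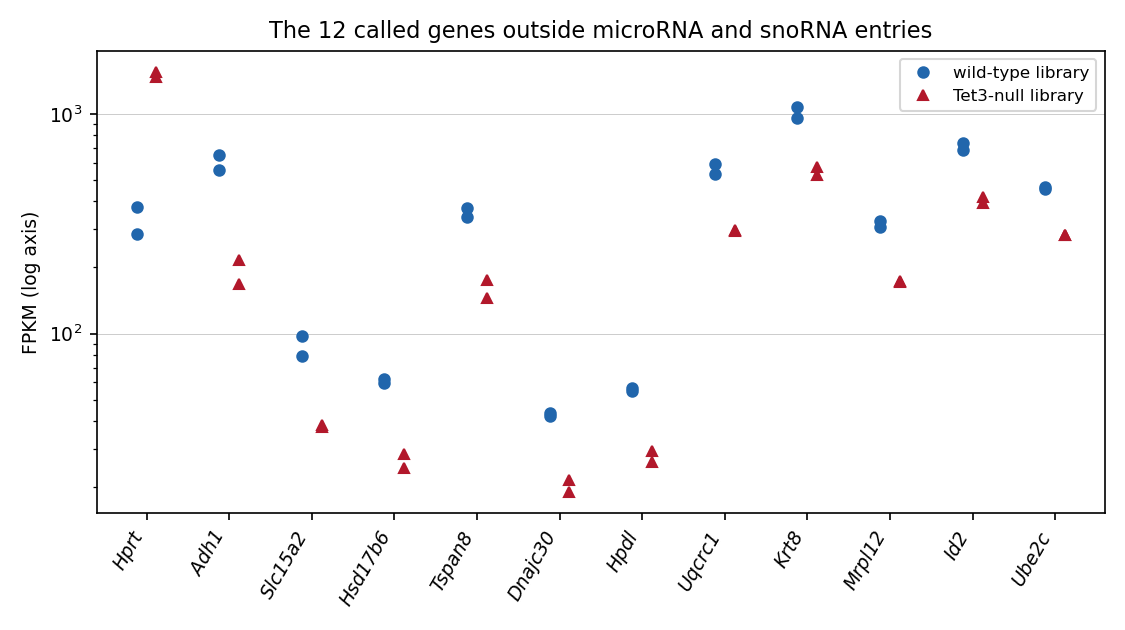
FPKM of the 12 called genes that are not microRNA or snoRNA entries, in the 4 blastocyst libraries, on a log axis; each point is 1 library. Hprt is higher in both Tet3-null libraries, and the other 11 genes are lower in both.

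Most called microRNA and snoRNA entries were all-or-none: 13 of the 17 were at 0 in both libraries of 1 genotype. In the Tet3-null libraries Mir142 was listed at 0, against 223 and 197 FPKM in wild-type, Mir302c at 0 against 147 and 131 FPKM, and Mir186 at 0 against 103 and 91.6 FPKM. In the other direction, Mir1894 was at 40.7 and 41.6 FPKM in the Tet3-null libraries and at 0 in both wild-type libraries. Mir290, of the microRNA cluster best known from embryonic stem cells, was present in all 4 libraries, at 72.1 and 72.5 FPKM in the Tet3-null and 188 and 208 FPKM in the wild-type libraries. The libraries were made from sheared cDNA and the protocol names no selection of small RNA, so the values are not measurements of mature microRNAs. FPKM divides by transcript length, so a very short entry can reach a high value from few fragments. Relative depth was 1 and 1.132 in the wild-type and 1.311 and 1.267 in the Tet3-null libraries. For Mir142, Mir302c, Mir186 and Mir1894 the deeper library of the genotype with the signal had the lower value. Fragment counts are unknown, and whether the calls of short entries rest on few fragments was not tested. No fold is given against a group listed at 0. The mature products, from RefSeq with the GRCm38.p6 table, show which microRNAs the entries name; capitals mark the seed, bases 2 to 8, and no 2 of those printed share it.
mmu-miR-142a-3p: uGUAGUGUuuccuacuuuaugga
mmu-miR-302c-3p: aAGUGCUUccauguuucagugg
mmu-miR-186-5p: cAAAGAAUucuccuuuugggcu
mmu-miR-1894-3p: gCAAGGGAgagggugaagggag

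More trophectoderm genes were lower than higher in Tet3-null blastocysts. Of 42 listed regulators and products, 36 passed the filter, and Elf5 and Igf2 did so only through the wild-type libraries, which fixes their direction. Of the other 34, 22 (64.7%) were lower and 2 (5.88%) higher without overlap, against 27.2% lower and 19.7% higher of the 10681 genes left when all such genes are set aside, and the median log2 change was -0.36 against -0.03. With all tested genes, 24 (66.7%) of 36 were lower and 2 (5.56%) higher, against 27.8% and 20.2%. These counts over 36 became 22 to 23 lower and 2 higher, with medians of -0.34 to -0.32, under quantile normalisation, median-of-ratios scaling and a correction for transcript GC content and length. RNA from pools cannot tell fewer cells of a type from less RNA per cell.

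Among trophectoderm transcription factors, Id2, an inhibitor of helix-loop-helix factors enriched in the outer cells, was at 420.05 and 391 FPKM in the Tet3-null and 737 and 683 FPKM in the wild-type libraries. It fell 1.75-fold (log2 change -0.81, SE 0.08, limma adjusted p = 0.0341). Eomes, a T-box factor needed for trophoblast growth, was at 4.83 and 5.82 FPKM in the Tet3-null and 10.9 and 12.7 FPKM in the wild-type libraries. Gata2, a trophoblast GATA factor, was at 27.5 and 29.96 FPKM in the Tet3-null and 50.3 and 48.3 FPKM in the wild-type libraries. Neither passed among all entries (limma adjusted p = 0.0807 and 0.0653), while both passed without short entries (adjusted p = 0.0312 and 0.0239). Cdx2, the homeobox factor that defines the lineage, overlapped between groups at 7.79 and 5.67 FPKM in the Tet3-null and 9.21 and 6.595 FPKM in the wild-type libraries. Its log2 change was -0.20 with a 95% interval of -0.74 to 0.34. Gata3, which acts beside Cdx2, was at 184 and 172 FPKM in the Tet3-null and 239.8 and 221 FPKM in the wild-type libraries. Tead4, the partner of Yap1 upstream of Cdx2, was at 15.7 and 15.01 FPKM in the Tet3-null and 19.5 and 17.6 FPKM in the wild-type libraries. Klf5 was at 80.9 and 94.2 FPKM in the Tet3-null and 142 and 119 FPKM in the wild-type libraries. These 3 were lower without overlap and were not called (adjusted p = 0.171, 0.377 and 0.165), and Tfap2c and Yap1 overlapped.

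Tspan8, a membrane tetraspanin, was at 176 and 144 FPKM in the Tet3-null and 339.9 and 372 FPKM in the wild-type libraries, and it fell 2.22-fold (log2 change -1.15, SE 0.12, limma adjusted p = 0.0361). Krt8, the type II keratin of simple epithelia, was at 571 and 527 FPKM in the Tet3-null and 1078 and 958 FPKM in the wild-type libraries and fell 1.85-fold (log2 change -0.89, SE 0.09, limma adjusted p = 0.0346). Its partner Krt18 was at 2170.4 and 1985 FPKM in the Tet3-null and 3138 and 2966 FPKM in the wild-type libraries, which passed only without short entries (adjusted p = 0.0645, and 0.0186 without them). Both keratins were lower in each Tet3-null library than in each wild-type library. The call was lost for Krt8 under quantile normalisation (adjusted p = 0.0669) and for Tspan8 under median-of-ratios scaling (adjusted p = 0.0502). Without short entries Dppa1, Gm2a, Ddah1 and Lcp1 were also called lower, with log2 changes of -0.74, -0.52, -0.73 and -0.69. That makes 10 of 36 called lower and none called higher, against 1.15% and 0.316% of the 10749 genes in that fit. The list was chosen with earlier results of these data known, so these shares are a description and not a test.

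Tet3 acts on methylated CpG dinucleotides, so the 250 bases before the RefSeq start are shown for 1 called gene that rose and 3 of the trophectoderm list that fell, with each CG in capitals (the same letters on both strands). Among 7672 tested genes with such a window, 98.9% held at least 1 CG and the median was 16. The Krt8 window held 3 and the Tspan8 window 4, counts at or under which 8.11% and 10.8% of all windows lay, while the Hprt window held 17 and the Id2 window 18. Of the genes shown that fell, Krt8 and Tspan8 had few CG, while Id2 was near the middle, with 60.9% of all windows at or under its count. The median was 12 over the 95 windows of genes called lower without short entries and 10 over the 25 windows of genes called higher. Sequences are from build GRCm38.p6, 5′ to 3′ on the strand of the gene: Hprt at chrX:52987828-52988077 (plus strand), Krt8 at chr15:102004343-102004592 (minus strand), Tspan8 at chr10:115817034-115817283 (plus strand) and Id2 at chr12:25096093-25096342 (minus strand).
Hprt: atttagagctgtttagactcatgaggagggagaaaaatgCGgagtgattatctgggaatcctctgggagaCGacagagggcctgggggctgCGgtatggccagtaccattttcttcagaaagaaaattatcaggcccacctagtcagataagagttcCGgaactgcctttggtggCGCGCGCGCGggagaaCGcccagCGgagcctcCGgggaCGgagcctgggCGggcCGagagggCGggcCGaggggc
Krt8: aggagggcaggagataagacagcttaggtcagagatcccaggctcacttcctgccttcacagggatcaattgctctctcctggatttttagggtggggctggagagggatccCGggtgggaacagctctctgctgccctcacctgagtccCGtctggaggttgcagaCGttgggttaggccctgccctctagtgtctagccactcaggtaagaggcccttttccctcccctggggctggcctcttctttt
Tspan8: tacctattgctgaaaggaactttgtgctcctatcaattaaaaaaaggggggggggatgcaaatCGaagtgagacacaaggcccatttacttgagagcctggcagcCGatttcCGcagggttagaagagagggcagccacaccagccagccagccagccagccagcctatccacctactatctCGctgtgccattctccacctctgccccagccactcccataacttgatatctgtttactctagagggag
Id2: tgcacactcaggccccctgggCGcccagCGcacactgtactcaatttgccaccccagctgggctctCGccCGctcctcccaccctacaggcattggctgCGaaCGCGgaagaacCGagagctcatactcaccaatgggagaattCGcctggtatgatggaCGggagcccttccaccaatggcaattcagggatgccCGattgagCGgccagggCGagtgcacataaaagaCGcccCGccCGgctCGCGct

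Primitive endoderm genes also lay lower more often than higher, with the regulators Gata6 and Dab2 as exceptions. Of 38 listed genes 24 passed the filter, 2 of them only through the wild-type libraries. Of the other 22, 14 (63.6%) were lower and 2 (9.09%) higher without overlap, against the same 27.2% and 19.7%, with a median of -0.43. The median over all 24 was -0.45. None passed among all entries. Gata6, the first factor of the lineage, was at 109 and 119 FPKM in the Tet3-null and 107 and 96.4 FPKM in the wild-type libraries. Dab2, an endocytic adaptor, was at 309.97 and 278 FPKM in the Tet3-null and 247 and 244 FPKM in the wild-type libraries. These are the 2 that were higher, and neither was called. Pdgfra, the receptor that marks the lineage, overlapped at 4.89 and 6.34 FPKM in the Tet3-null and 5.38 and 6.504 FPKM in the wild-type libraries. Gata4, a later factor, was at 1.97 and 1.68 FPKM in the Tet3-null and 4.23 and 2.91 FPKM in the wild-type libraries and was lower without a call (adjusted p = 0.231), and Sox17 did not reach the filter.

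The genes called on the lower side were a laminin chain, a collagen chaperone, a prolyl hydroxylase subunit and a water channel. Lama1, a laminin chain, was at 1.31 and 0.943 FPKM in the Tet3-null and 4.55 and 4.37 FPKM in the wild-type libraries. Serpinh1, the collagen chaperone, was at 6.896 and 4.22 FPKM in the Tet3-null and 20.3 and 13 FPKM in the wild-type libraries. For Serpinh1 the libraries of each group were further apart than for Lama1. P4hb, a subunit of prolyl hydroxylase, was at 67.99 and 55.2 FPKM in the Tet3-null and 115 and 98.1 FPKM in the wild-type libraries. The water channel Aqp8 was at 16.2 and 12.1 FPKM in the Tet3-null and 33.2 and 36.8 FPKM in the wild-type libraries. All 4 lay lower in each Tet3-null library, and all 4 were called only without short entries (adjusted p = 0.0213, 0.0453, 0.0349 and 0.0186). They are 4 of the 24 tested members, against 1.15% of the 10749 genes called lower in that fit. This list too was chosen with earlier results known. Sparc, Nid1, Nid2, Lamb1, Lamc1 and Col4a2 were lower without overlap and without a call in either fit, and Col4a1 and Fn1 overlapped. The median over all 24 rested on weakly expressed members in part: it was -0.29 among members with at least 5 FPKM in 2 libraries.

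Epiblast and pluripotency genes had a median near that of all genes. Of 35 genes 28 passed the filter, 7 (25%) were higher and 5 (17.9%) lower without overlap, against 20.2% and 27.8% of all tested genes. The median was 0.03, or -0.07 to 0.19 with 1 library left out, and none was called in either fit. Pou5f1 was at 92.7 and 93.9 FPKM in the Tet3-null and 107 and 88.3 FPKM in the wild-type libraries, and Sox2 and Fgf4 also overlapped between groups. Nanog was at 145 and 138 FPKM in the Tet3-null and 114 and 132 FPKM in the wild-type libraries, higher in both Tet3-null libraries without passing (log2 change 0.20, 95% interval -0.05 to 0.45, adjusted p = 0.403). Otx2, a homeobox factor of the later epiblast, had the largest difference, at 8.39 and 10.1 FPKM in the Tet3-null and 5.79 and 5.695 FPKM in the wild-type libraries (adjusted p = 0.1899). The test of the difference between lineages was not made, since lists are described here by counts and medians.

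**Figure D3:**
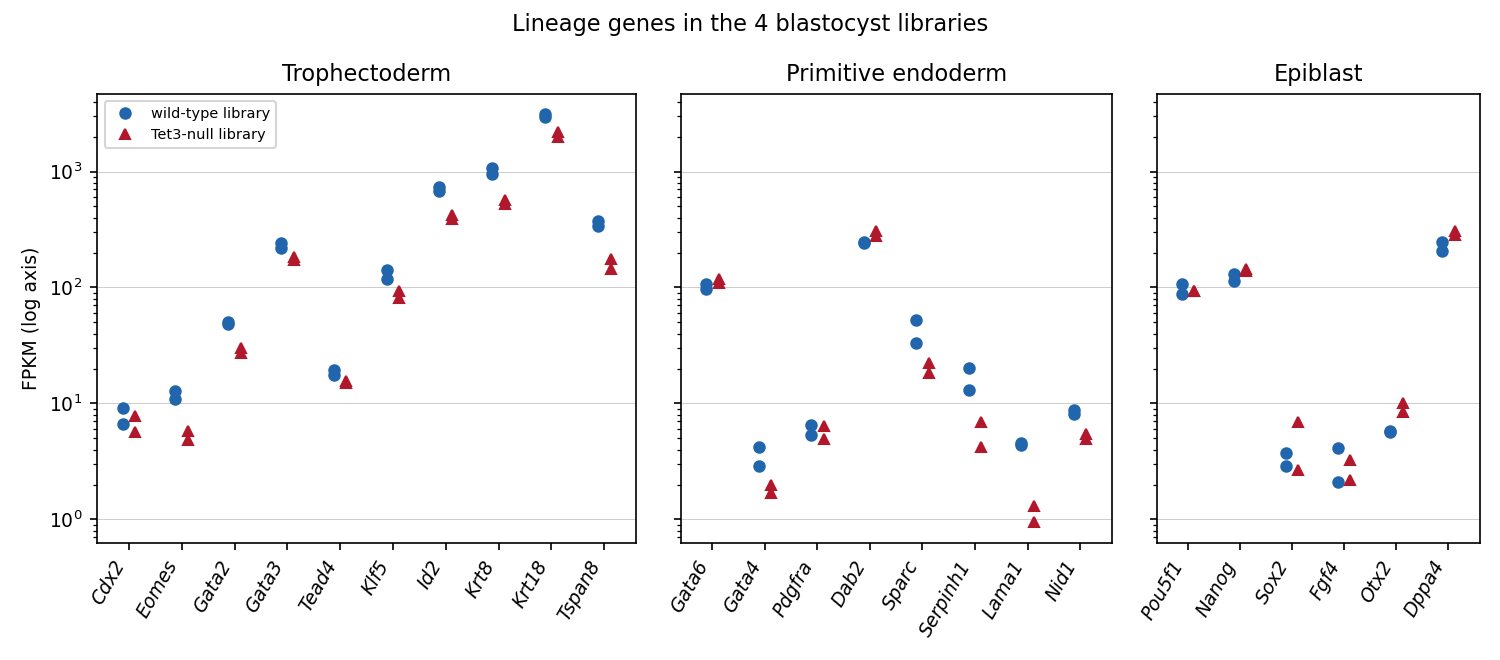
FPKM of trophectoderm, primitive endoderm and epiblast genes in the 4 blastocyst libraries, on a log axis; each point is 1 library. Id2, Krt8 and Tspan8 passed the test and lie lower in both Tet3-null libraries, Cdx2, Pdgfra, Pou5f1, Sox2 and Fgf4 overlap, and Gata6, Dab2, Nanog, Otx2 and Dppa4 lie higher without a call.

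Beyond Krt8 and Krt18, the other keratins were weakly expressed and lay in both directions. Of 18 keratin and intermediate filament genes 11 passed the filter, Krt14 and Vim through 1 genotype alone. Of the other 9, 3 (33.3%) were higher and 4 (44.4%) lower without overlap, against 19.7% and 27.2% of the genes left when all such genes are set aside. The median was -0.14, and over all 11 it was 0.04 without wild-type library 1 and -0.40 without wild-type library 2. Krt14, a keratin of stratified epithelia, was at 2.55 and 4.998 FPKM in the Tet3-null and 0.424 and 0.8599 FPKM in the wild-type libraries, which reached 1 FPKM only in the Tet3-null libraries and was not called (adjusted p = 0.137). Krt19 was at 5.63 and 8.75 FPKM in the Tet3-null and 2.48 and 5.52 FPKM in the wild-type libraries, higher by a small margin, and Krt7 overlapped. Vim, the mesenchymal filament vimentin, was at 0.475 and 0.555 FPKM in the Tet3-null and 1.85 and 8.57 FPKM in the wild-type libraries, with the wild-type libraries far apart from each other.

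The junction lists lay close to all genes or had a median that moved with single libraries. In the tight junction and polarity list 33 of 37 passed the filter, 13 (39.4%) were lower and 3 (9.09%) higher without overlap, against 27.8% and 20.2% of all tested genes. The median was -0.15, and it was -0.26 without Tet3-null library 1, -0.03 without wild-type library 1 and -0.30 without wild-type library 2. Claudins seal the space between trophectoderm cells. Cldn3 was at 3.17 and 2.83 FPKM in the Tet3-null and 8.97 and 8.201 FPKM in the wild-type libraries. The more abundant Cldn7 was at 128 and 118 FPKM in the Tet3-null and 200.3 and 180.1 FPKM in the wild-type libraries. Both were called lower only without short entries (adjusted p = 0.01904 and 0.0265). Cldn4, the most abundant claudin here, overlapped at 533 and 422 FPKM in the Tet3-null and 562 and 484 FPKM in the wild-type libraries, as did Cldn6. Ocln, another seal protein, was higher without a call at 14.8 and 15.2 FPKM in the Tet3-null and 12.96 and 13.5 FPKM in the wild-type libraries. Among 27 of 35 adherens, desmosome and gap junction genes that were tested, 8 (29.6%) were lower and 4 (14.8%) higher, near the shares of all tested genes, with a median of -0.09. Under the GC and length correction 6 (25%) were lower and 7 (29.2%) higher with a median of 0.01, so the direction turned. Epcam, an epithelial adhesion protein, was at 172 and 190.3 FPKM in the Tet3-null and 267 and 269.5 FPKM in the wild-type libraries and was called only without short entries (adjusted p = 0.0257). Cdh1, E-cadherin, was at 60.7 and 66 FPKM in the Tet3-null and 86 and 69.3 FPKM in the wild-type libraries without a call.

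Of 28 genes for blastocoel ion and water transport 19 were tested, 8 (42.1%) were lower and 2 (10.5%) higher, against 27.8% and 20.2% of all tested genes. The median was -0.13, and it was -0.07 without Tet3-null library 2 and -0.23 without wild-type library 1. Atp1b1, the beta subunit of the sodium pump, was at 20.4 and 19.9 FPKM in the Tet3-null and 35.7 and 31.03 FPKM in the wild-type libraries. Slc9a3r1, a scaffold of apical transporters, was at 44.4 and 48.3 FPKM in the Tet3-null and 83.7 and 69.9 FPKM in the wild-type libraries. Atp1b1, Slc9a3r1 and Aqp8 were called lower only without short entries (adjusted p = 0.0405, 0.0349 and 0.0186). The abundant water channel Aqp3 overlapped at 194 and 153 FPKM in the Tet3-null and 195 and 172 FPKM in the wild-type libraries. Fxyd4, a regulator of the pump, was at 388 and 393 FPKM in the Tet3-null and 361 and 365 FPKM in the wild-type libraries. In the actin cortex list 41 of 45 were tested, 17 (41.5%) were lower and 6 (14.6%) higher, against the same shares, 1 of them (Eps8) through the Tet3-null libraries alone. Their median of -0.07 became -0.03 with median-of-ratios scaling, and the GC and length correction gave -0.02. Tpm1, Coro1b and Lcp1 were called lower without short entries at log2 changes of -0.74, -0.68 and -0.69. Actb, cytoplasmic actin, was at 12611 and 12309 FPKM in the Tet3-null and 12910.2 and 14058 FPKM in the wild-type libraries (log2 change -0.11, 95% interval -0.27 to 0.05).

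**Figure D4:**
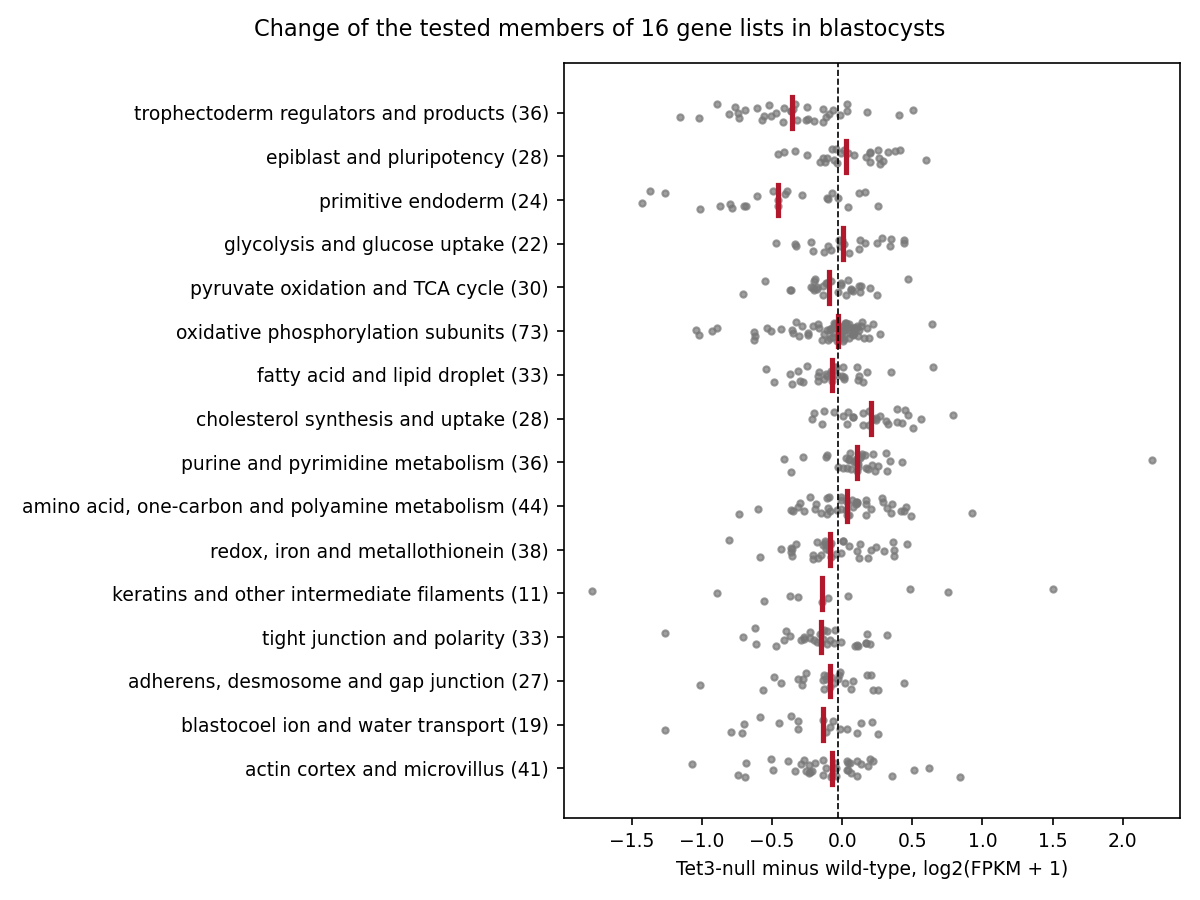
Log2 change (Tet3-null minus wild-type, log2(FPKM + 1)) of each tested member of 16 lineage, metabolic and epithelial lists; points are genes, red bars are list medians, the dashed line is the median of all tested genes (-0.03), and the number tested is in parentheses. The trophectoderm (-0.36) and primitive endoderm (-0.45) medians lie lowest, and the cholesterol median (0.21) lies highest.

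More genes of cholesterol synthesis and uptake were higher than lower in Tet3-null blastocysts, each by a small amount. Of 30 genes 28 were tested, 16 (57.1%) were higher and 2 (7.14%) lower without overlap, against 20.2% and 27.8% of all tested genes, and the median was 0.21. None was called in either fit. Idi1, which isomerises the isoprenoid unit, was at 23.5 and 22.1 FPKM in the Tet3-null and 10.5 and 15.5 FPKM in the wild-type libraries. Sc4mol, a sterol oxidase, was at 36.9 and 50.8 FPKM in the Tet3-null and 29.4 and 31.1 FPKM in the wild-type libraries. Both were higher in each Tet3-null library than in each wild-type library, with log2 changes of 0.79 and 0.51 (adjusted p = 0.182 and 0.256). Insig1, which holds back the sterol-regulated factors, was lower without overlap at 67.1 and 72.3 FPKM in the Tet3-null and 72.8 and 79.8 FPKM in the wild-type libraries, as was Ebp. Srebf2, the factor that drives the pathway, overlapped at 1.58 and 1.57 FPKM in the Tet3-null and 1.62 and 1.41 FPKM in the wild-type libraries. The list median stayed between 0.18 and 0.25 under the scaling alternatives and with each library left out.

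**Figure D5:**
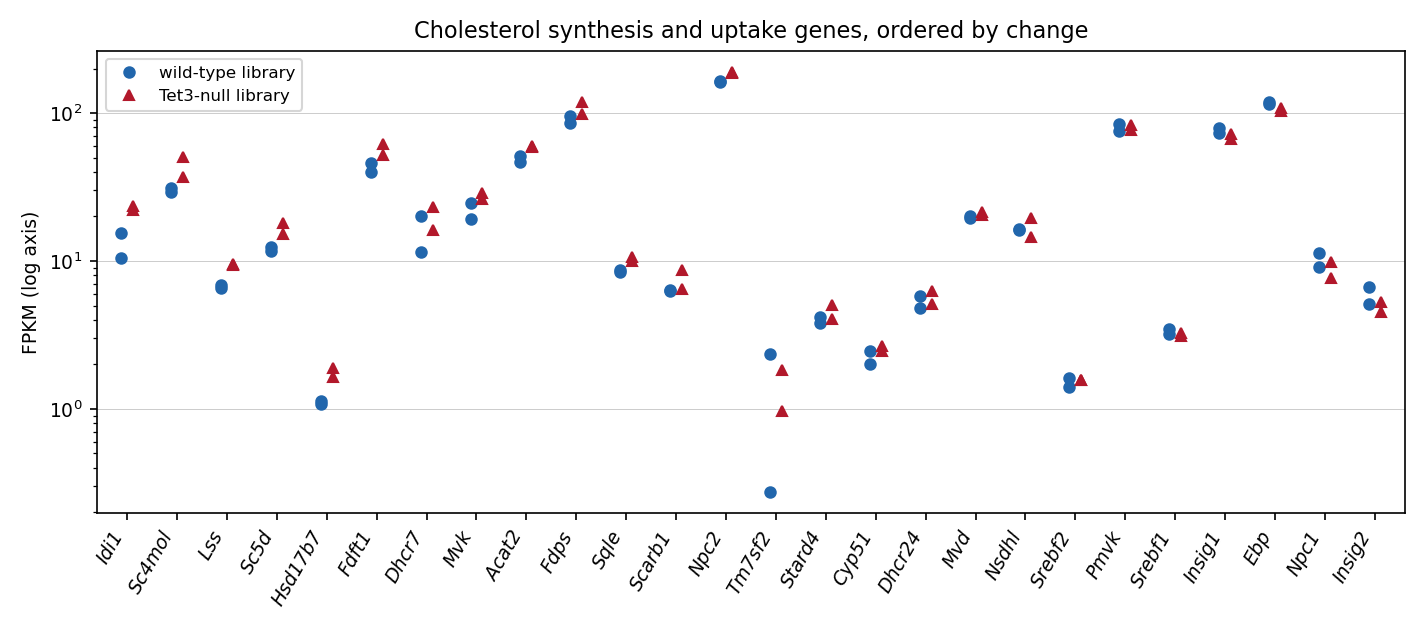
FPKM of 26 of the 28 tested genes of cholesterol synthesis and uptake in the 4 blastocyst libraries, on a log axis, ordered by log2 change; each point is 1 library. Of the 26 shown, 14 lie higher and 2 lower in both Tet3-null libraries, and none passed the test.

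Purine and pyrimidine genes other than Hprt differed by much less than Hprt did. Of 39 genes 36 were tested, 18 (50%) were higher and 3 (8.33%) lower without overlap, against 20.2% and 27.8% of all tested genes, and Hprt was the only call. The median was 0.11, and it was 0.07 without Tet3-null library 1 and 0.16 without Tet3-null library 2. Aprt, the enzyme that recycles adenine, was at 518 and 536 FPKM in the Tet3-null and 509 and 477 FPKM in the wild-type libraries. Paics, of purine synthesis, was at 252 and 238 FPKM in the Tet3-null and 209 and 202 FPKM in the wild-type libraries. Impdh2, of guanine nucleotide synthesis, was at 352 and 389 FPKM in the Tet3-null and 336 and 303 FPKM in the wild-type libraries. The margins between groups were small in all 3. Umps, which completes the synthesis of uridine monophosphate, was at 76.5 and 68.6 FPKM in the Tet3-null and 55.8 and 51.5 FPKM in the wild-type libraries (log2 change 0.43, adjusted p = 0.177). Those 4 were higher without overlap and without a call, Upp1, Dtymk and Adss were lower, and Prps1 overlapped.

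Among respiratory chain subunits some members differed and the median of the list was that of all genes. All 73 were tested, 25 (34.2%) were lower and 15 (20.5%) higher without overlap, against 27.8% and 20.2% of all tested genes, and the median was -0.03. Quantile normalisation gave 37 lower (50.7%, against 23.3% of all genes) with a median of -0.03, and median-of-ratios scaling gave 18 lower (24.7%, against 24.1%) with a median of 0.02, so the share of lower subunits depends on the scaling. Uqcrc1, a core subunit of complex III, was at 297 and 293 FPKM in the Tet3-null and 591 and 534 FPKM in the wild-type libraries, and it fell 1.91-fold (log2 change -0.93, SE 0.08, limma adjusted p = 0.0225). Without short entries Ndufa10, Cox6a1, Cox8a and Atp5d were also called lower, and Cox6b2, the isoform of a complex IV subunit best known from testis, was called higher. Cox6a1 was at 693 and 805 FPKM in the Tet3-null and 1727 and 1364 FPKM in the wild-type libraries. Cox6b2 was at 246 and 234 FPKM in the Tet3-null and 162 and 145 FPKM in the wild-type libraries, so 2 subunits of the same complex lay in opposite directions without overlap. The abundant subunits Atp5k and Uqcr10 overlapped between groups.

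Glycolysis and the citric acid cycle gave no call among all entries. Of 28 glycolysis and glucose uptake genes 22 were tested, 5 (22.7%) were higher and 5 (22.7%) lower without overlap, against 20.2% and 27.8% of all tested genes. The median was 0.01 and none was called. Ldha, lactate dehydrogenase, was at 178 and 179 FPKM in the Tet3-null and 138 and 141 FPKM in the wild-type libraries. Slc2a1, the glucose transporter, was at 21.1 and 15.8 FPKM in the Tet3-null and 14.5 and 11.96 FPKM in the wild-type libraries, and both were higher without a call (adjusted p = 0.149 and 0.326). Pgam1, a mutase, was lower without a call at 44.8 and 47.2 FPKM in the Tet3-null and 69.7 and 59.2 FPKM in the wild-type libraries. All 30 genes of pyruvate oxidation and the citric acid cycle were tested, 11 (36.7%) lower and 5 (16.7%) higher, against 27.8% and 20.2% of all tested genes, with a median of -0.09. Median-of-ratios scaling gave 8 lower and 8 higher, and the median was -0.05 to -0.03 with any 1 library left out. Idh1, the cytosolic enzyme that makes 2-oxoglutarate, the cosubstrate of Tet enzymes, was at 179 and 168 FPKM in the Tet3-null and 125 and 126 FPKM in the wild-type libraries and was called higher only without short entries (adjusted p = 0.0453). Its mitochondrial relative Idh2 was at 16.9 and 18.97 FPKM in the Tet3-null and 31.5 and 22.6 FPKM in the wild-type libraries, lower without a call. Mdh2, the most abundant of the list, had a log2 change of -0.12 (95% interval -0.32 to 0.08).

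In fatty acid and lipid droplet metabolism 33 of 39 genes were tested, 9 (27.3%) were lower, 1 of them (Lpl) through the wild-type libraries alone, and 2 (6.06%) higher, against 27.8% and 20.2% of all tested genes. None was called, and the median was -0.07, from -0.16 without wild-type library 2 to 0.0045 without wild-type library 1. Fabp3, a fatty acid carrier and one of the most abundant transcripts, was at 6526 and 6184 FPKM in the Tet3-null and 7003 and 8119 FPKM in the wild-type libraries. Acadl, an enzyme of beta-oxidation, was at 65.2 and 75.4 FPKM in the Tet3-null and 111 and 94.4 FPKM in the wild-type libraries. Both were lower without overlap. Amino acid, folate and polyamine genes were tested in 44 of 45 cases, with 12 (27.3%) higher and 7 (15.9%) lower, against 20.2% and 27.8%. The median was 0.04, from -0.03 without wild-type library 2 to 0.13 without wild-type library 1. Sat1, which acetylates polyamines for export, was called higher without short entries at 729 and 827 FPKM in the Tet3-null and 565 and 577 FPKM in the wild-type libraries (adjusted p = 0.0473). Psat1, of serine synthesis, was at 201 and 192 FPKM in the Tet3-null and 150.01 and 129 FPKM in the wild-type libraries without a call. Bhmt, which methylates homocysteine, was at 882 and 1317 FPKM in the Tet3-null and 854 and 875 FPKM in the wild-type libraries, and 1 Tet3-null library lay above the other 3. Of 39 redox, iron and metallothionein genes 38 were tested, 15 (39.5%) lower and 9 (23.7%) higher, against 27.8% and 20.2%. The median was -0.09, from -0.13 without wild-type library 1 to -0.02 without wild-type library 2. Fth1, the ferritin heavy chain, was at 107 and 112 FPKM in the Tet3-null and 160.01 and 169 FPKM in the wild-type libraries and was called lower without short entries (adjusted p = 0.0253). The light chain Ftl1 was higher without a call at 8874 and 7832 FPKM in the Tet3-null and 7219.8 and 7428 FPKM in the wild-type libraries, and Mt1 overlapped.

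No gene of the DNA methylation machinery was called among all entries. Of 33 genes 29 were tested, 10 (34.5%) lower and 4 (13.8%) higher without overlap, against 27.8% and 20.2% of all tested genes, with a median of -0.05. Under the GC and length correction 4 were lower and 6 higher with a median of 0.02, so the direction turned. Dppa3, which protects the maternal genome from Tet3 in the zygote, was at 10582 and 10829 FPKM in the Tet3-null and 8369 and 7462 FPKM in the wild-type libraries, and was called higher only without short entries (adjusted p = 0.0286). Gadd45g, a stress-induced protein linked to demethylation, was at 48.4 and 35.2 FPKM in the Tet3-null and 72.97 and 74.6 FPKM in the wild-type libraries and was called lower there (adjusted p = 0.0453). Imprinted genes were tested in 36 of 56 cases, 9 (25%) higher and 11 (30.6%) lower with a median of -0.04, shares close to those of all tested genes. Igf2 passed the filter through the wild-type libraries alone. Of the other 35, 9 (25.7%) were higher and 10 (28.6%) lower with a median of -0.0067, against 19.7% and 27.2% of the genes left when all such genes are set aside. Cd81, a tetraspanin, was called higher without short entries at 155 and 132 FPKM in the Tet3-null and 86.1 and 78.9 FPKM in the wild-type libraries (adjusted p = 0.0232), and Xist, which is also on this list, was called lower there (adjusted p = 0.01904).

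Maternal transcripts were mostly gone in both genotypes, with 28 of 44 listed genes under 1 FPKM in all 4 libraries. Of the 14 tested, 8 (57.1%) were higher and 1 (7.14%) lower without overlap, against 20.2% and 27.8% of all tested genes, and only Dppa3 was called without short entries. The median was 0.24, and it was 0.12 without wild-type library 1, 0.40 without wild-type library 2 and 0.03 without the filter. Padi6, a protein of the subcortical maternal complex, was at 9.37 and 8.98 FPKM in the Tet3-null and 5.298 and 3.76 FPKM in the wild-type libraries (adjusted p = 0.142), while the oocyte genes Gdf9, Bmp15, Zp3 and Oosp1 did not reach the filter. Genes of the 2-cell stage were tested in 12 of 35 cases, with 4 (33.3%) higher and 2 (16.7%) lower without overlap, against the same shares. Among them Tcstv1 passed the filter through the Tet3-null libraries alone. Of the other 11, 3 (27.3%) were higher and 2 (18.2%) lower, against 19.7% and 27.2% of the genes left when all such genes are set aside. Zscan4d was listed at 0 in all 4 libraries. For p53 targets and apoptosis genes 31 of 36 were tested, 10 (32.3%) higher and 4 (12.9%) lower, against 20.2% and 27.8%, with no call. The median was 0.06, from -0.0036 without Tet3-null library 1 to 0.16 without Tet3-null library 2. Fas, the death receptor, was at 10.2 and 6.79 FPKM in the Tet3-null and 4.62 and 3.16 FPKM in the wild-type libraries. Cdkn1a, the cell cycle inhibitor, was at 109.8 and 104 FPKM in the Tet3-null and 73.5 and 90.5 FPKM in the wild-type libraries, and neither was called (adjusted p = 0.195 and 0.243). Of 49 cell cycle genes 47 were tested, 12 (25.5%) higher and 13 (27.7%) lower, against the same shares, with a median of 0.0035. Besides Ube2c, the mitotic genes Cdc20 and Cenpa were called lower without short entries. Cdc20, which activates the anaphase-promoting complex, was at 68.8 and 76.6 FPKM in the Tet3-null and 122 and 114 FPKM in the wild-type libraries. Cenpa, the histone of the centromere, was at 49.4 and 56.7 FPKM in the Tet3-null and 96.2 and 99.8 FPKM in the wild-type libraries.

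Among genes with at least 5 FPKM in the higher group, the size rule of 1 on the log2 scale left 13 named genes that were higher. X-linked genes made up 5 of these 13 (38.5%), Ccdc160, Hprt, Rhox1, Tmsb15b1 and Xlr, while 3.31% of tested genes with a known chromosome were X-linked. On the lower side the same rule gave 2 of 27 (7.41%), Pgrmc1 and Xist. Over all genes without overlap the order was the reverse, with 2.28% X-linked among those higher and 4.49% among those lower. Over all 321 tested X-linked genes the median log2 change was -0.09, against -0.03 for autosomal genes. Xlr, of a lymphocyte-regulated family, was at 9.06 and 14.5 FPKM in the Tet3-null and 4.31 and 4.03 FPKM in the wild-type libraries. Rhox1, a homeobox gene of the reproductive cluster, was at 10.9 and 11.8 FPKM in the Tet3-null and 4.1 and 6.01 FPKM in the wild-type libraries. Both X-linked genes lay higher in each Tet3-null library. Ostm1, a lysosomal membrane protein, was at 9.92 and 10.01 FPKM in the Tet3-null and 3.06 and 4.06 FPKM in the wild-type libraries. Hsd17b1, which makes oestradiol, was at 18.3 and 15.6 FPKM in the Tet3-null and 9.15 and 6.66 FPKM in the wild-type libraries. Only Hprt among the 13 passed the test with all entries. The lower side held, besides genes described above, Adrm1, a ubiquitin receptor of the proteasome, at 81.4 and 81.1 FPKM in the Tet3-null and 234 and 175 FPKM in the wild-type libraries (adjusted p = 0.0515). Alkbh6 was at 5.75 and 7.74 FPKM in the Tet3-null and 20.6 and 15.96 FPKM in the wild-type libraries (adjusted p = 0.0755).

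A fit of all 8 libraries asked whether the genotype difference in blastocysts differed from that at the 2-cell stage. It did for 19 of 13549 genes (0.14%), of which 13 were microRNA or snoRNA entries and 6 were other genes, Calb2, Defb13, Ergic3, Fcgrt, Kcne3 and Tmsb15b1. Defb13, Ergic3, Fcgrt and Kcne3 are named after their values were seen. The 2 Tet3-null 2-cell libraries differed in the summed Y-linked genes, at 27.2 and 0.166 FPKM, against 35.3 and 37.1 FPKM in the wild-type 2-cell libraries. The part of embryo sex in the stage difference was not tested. The count was 1703 without Tet3-null 2-cell library 1 and 42 without Tet3-null 2-cell library 2. For Hprt the 2-cell libraries were at 247 and 201 FPKM in Tet3-null and 180.1 and 153 FPKM in wild-type, and the difference between stages was 1.78 on the log2 scale (limma adjusted p = 0.0886), which did not pass. The differences of Krt8, Id2, Tspan8, Adh1 and Uqcrc1 between stages did not pass either (limma adjusted p = 0.758, 0.478, 0.769, 0.358 and 0.984), so these data do not set their blastocyst change apart from that at the 2-cell stage.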

How the data were processed

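RNA-seq libraries were made from pools of 7 blastocysts with a SMARTer low-input cDNA kit, sonication and a library kit that does not mark strand, per the labels' protocols. The authors deposited FPKM per gene, and per the submitters' processing notes the tools were Cufflinks 2.2.0, TopHat2 2.0.10 and Bowtie2 2.1.0, with build mm9. Which annotation and settings were used, and how shared reads were split, is not given in the sources used here. FPKM were taken as log2(FPKM + 1), and genes with at least 1 FPKM in 2 or more of the 4 libraries were kept. The 2 Tet3-null and 2 wild-type blastocyst libraries were compared with limma 3.58.1 (R 4.3.3), two-sided, with a trend of the variance on intensity (2 residual degrees of freedom and 3.64 from the prior) and Benjamini-Hochberg adjustment over all genes tested. The fit was tested on simulated data. All adjusted p-values come from limma. The stage difference used all 8 libraries.

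The members, the 26 gene lists (934 entries, 13 matched by a synonym and 2 unmatched) and the tests were chosen with earlier results of these data known. Named genes were Tet1 to Tet3, the 20 largest called genes, up to 15 per direction with a difference of at least 1, no overlap and a mean of at least 5 FPKM, per lineage, metabolic or epithelial list the 2 most abundant members and the 4 with the smallest p, and lineage-defining genes. Other list members are named as examples, after their values were seen, and a few genes are not reported here. Read totals are unknown; relative depth was estimated from values under 0.15 FPKM. Alternatives were a pseudocount of 0.1, no filter, a 5 FPKM filter, 2 scalings, all 8 libraries, no trend, microRNA and snoRNA entries left out, a replicate block and each library left out. A GC and length correction, with values for 90.1% of tested genes, was added after seeing the data. The gene tables at hand are of GRCm38, so no mm9 coordinates are given, and they served for symbols, chromosomes, transcript GC and length, and RefSeq sequences with their own coordinates.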

Additional observations from a re-analysis of the deposited data

Results flagged for a closer look

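Each result here had a genotype difference in blastocysts that differed from the one in 2-cell embryos by a limma test of the difference itself across all 8 libraries; signed values are that difference on the log2(FPKM + 1) scale. Among microRNA entries it was -7.72 for Mir142, -7.13 for Mir302c, -6.61 for Mir186, -6.48 for Mir5134, -6.66 for Mir1893, -5.60 for Mir467d, -8.00 for Mir690 and 5.40 for Mir1894. Mir142, Mir302c, Mir186, Mir5134, Mir467d and Mir1894 were listed at 0 in every 2-cell library, so their value restates the all-or-none blastocyst difference. The fragment counts behind the microRNA values are unknown, and such short entries can reach a high FPKM from few fragments. Mir690 was at 29.3 and 15.9 FPKM in the Tet3-null 2-cell libraries and at 0 in the wild-type ones, the opposite of the blastocysts.

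Among protein-coding genes, Tmsb15b1, a thymosin that binds actin monomers and is X-linked, differed by 1.99 (adjusted p = 0.0330). In blastocysts it was at 5.74 and 5.65 FPKM in the Tet3-null and 2.17 and 1.94 FPKM in the wild-type libraries, and the 2-cell values were 25.6 and 30.4 FPKM for Tet3-null against 49.1 and 53.8 FPKM for wild-type. Calb2, a calcium-binding protein, differed by 2.82 (adjusted p = 0.0243). It was at 6.21 and 5.46 FPKM in the Tet3-null and 1.96 and 2.62 FPKM in the wild-type libraries, and at 0 and 0 against 2.88 and 1.97 FPKM in the 2-cell embryos. Both genes were higher in each Tet3-null blastocyst library and lower in each Tet3-null 2-cell library than in the wild-type libraries of the stage.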

How the results depend on the processing

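With microRNA and snoRNA entries left out, calls numbered 34 higher and 124 lower. They numbered 2 and 3 without a filter, 2 and 7 in the 8-library fit, 8 lower without the trend, 34 lower with the 5 FPKM filter, and 8 to 12 higher and 11 to 24 lower with 1 library left out. Differences of at least 1 without overlap numbered 130 higher and 181 lower with a pseudocount of 0.1, 24 higher with the 5 FPKM filter, and 64 to 75 higher and 100 to 144 lower with 1 library left out, where fewer libraries make overlap rarer. The differences between replicates 1 and 2 were nearly uncorrelated between the genotypes (0.0228). That cannot decide whether a shared replicate number marks a pair, and the labels do not say what it means. The replicate block gave 10 lower calls and 16 in all. The primitive endoderm median was -0.17 without a filter and -0.29 with the 5 FPKM filter. The transport median was -0.094 under median-of-ratios scaling, -0.26 with 8 libraries and -0.23 to -0.067 with 1 library left out. Such ranges were -0.034 to 0.13 for amino acid genes, -0.13 to -0.017 for redox genes and -0.40 to 0.038 for keratins. The trophectoderm median stayed between -0.41 and -0.32 and the cholesterol median between 0.18 and 0.24. The stage difference called 110 genes without a filter, 12 with the replicate block and 13 to 1703 with 1 library left out. No gene whose sign turned was called. Under median-of-ratios scaling Sdhb was 0.034, Uqcr10 0.002001 and Tmsb10 0.0019; under the GC and length correction Sdhb was 0.021, Tmsb10 0.030, Pou5f1 0.021 and Pdgfra 0.015; under quantile normalisation Atp5k was -0.032. With 1 library left out the ranges were -0.10 to 0.23 for Tet1, -0.10 to 0.014 for Dppa5a, -0.0016 to 0.17 for Sall4, -0.22 to 0.019 for Lrpap1, -0.11 to 0.093 for Sdhb, -0.061 to 0.082 for Atp5k, -0.10 to 0.022 for Uqcr10, -0.29 to 0.12 for Mt1, -0.30 to 0.032 for Cldn4, -0.26 to 0.079 for Aqp3, -0.11 to 0.03 for Tmsb10, -0.42 to 0.012 for Cdx2, -0.22 to 0.88 for Sox2, -0.20 to 0.078 for Pou5f1, -0.47 to 0.25 for Fgf4 and -0.23 to 0.085 for Pdgfra. The cause of these shifts was not tested. With 2 libraries a group and unknown depth, small changes of weakly expressed genes were not detectable.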

Other observations

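Other genes were called only with the microRNA and snoRNA entries left out of the limma fit, and the genes below were chosen from them after their values were seen, with no count of the families they belong to. The proteasome subunit Psmb4 was at 208 and 238 FPKM in the Tet3-null and 404 and 372 FPKM in the wild-type libraries (adjusted p = 0.0181). Psmd8, of the regulatory particle, was at 111 and 105 FPKM in the Tet3-null and 185 and 166 FPKM in the wild-type libraries (adjusted p = 0.0213), both lower in each Tet3-null library. The initiation factor Eif1 was at 147 and 164 FPKM in the Tet3-null and 289 and 255 FPKM in the wild-type libraries. Its X-linked relative in the scanning ribosome, Eif1ax, was at 72.4 and 80.2 FPKM in the Tet3-null and 137 and 129 FPKM in the wild-type libraries. Both had an adjusted p of 0.0184 and no overlap. H2-D1, a class I major histocompatibility gene, was at 11.4 and 8.74 FPKM in the Tet3-null and 20.9 and 22.7 FPKM in the wild-type libraries (adjusted p = 0.0253). H2-K1, of the same class, was at 35.8 and 34.7 FPKM in the Tet3-null and 64.5 and 51.5 FPKM in the wild-type libraries (adjusted p = 0.0481). How reads shared by these similar genes were counted is not given. Apoa1, the main protein of high-density lipoprotein, was at 70.9 and 64.3 FPKM in the Tet3-null and 102 and 117 FPKM in the wild-type libraries (adjusted p = 0.0287). Enpep, a membrane aminopeptidase, was at 59.9 and 65.4 FPKM in the Tet3-null and 113 and 109 FPKM in the wild-type libraries (adjusted p = 0.0181).

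Among the 34 called higher, Hormad1, a meiotic chromosome axis protein, was at 42.7 and 43.4 FPKM in the Tet3-null and 21.3 and 26.7 FPKM in the wild-type libraries (adjusted p = 0.0321). Gtsf1, which acts in transposon silencing in the germline, was at 233 and 244 FPKM in the Tet3-null and 179 and 168 FPKM in the wild-type libraries (adjusted p = 0.0453). Both lay above the wild-type values in each Tet3-null library. Id3, a relative of Id2, was at 203 and 179 FPKM in the Tet3-null and 109.8 and 131 FPKM in the wild-type libraries (adjusted p = 0.0354), the opposite direction to Id2; the difference between their changes was not tested. Sct, which encodes the hormone secretin, was at 127 and 119.7 FPKM in the Tet3-null and 72.7 and 67.99 FPKM in the wild-type libraries (adjusted p = 0.0181).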
